A study of Felis catus with 77 samples.

Results

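Adipose tissue (AT) and skeletal muscle (SM) taken next to feline fibrosarcoma were compared within 10 cats, those with a library of both tissues (cats 5, 6, 10, 12, 13, 18, 19, 23, 29 and 31, named by the case number in the library titles). These 20 libraries were chosen by title out of 77 in the series, which holds 16 AT and 20 SM libraries in all, beside tumor (T) and connective tissue (CT). All came from client-owned cats, mostly European Shorthair and of both sexes, whose tumors were removed by surgery. Areas chosen by a pathologist were cut from formalin-fixed paraffin sections by laser-capture microdissection (LCM), and RNA was sequenced with a kit for low input. Both tissues thus came from tumor-bearing animals without a healthy control, and each AT and SM library is a captured area of one cat. For cat 5 the title of one library says AT while its tissue field says tumor, and the title was followed.

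AT is made mostly of adipocytes, large cells filled by a droplet of triglyceride that hold little cytoplasm and RNA for their size, set among fibroblasts, vessels and macrophages. SM is made of long multinucleate myofibers packed with sarcomeres, and transcripts of contractile proteins and of muscle energy metabolism are known to take a large part of its mRNA. The comparison asks how far the 2 normal tissues that surround the tumor differ from each other. In bulk libraries like these, fewer cells of a type and less RNA per cell cannot be told apart. The files give Ensembl gene identifiers without symbols and no reference at hand pairs them, so genes are counted and only a few are given, by identifier. Known adipocyte or myofiber markers could therefore not be looked up.

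In every pair the AT library was shallower than the SM library. Total counts ranged from 1047617 to 6551583 in AT and from 3652755 to 18377280 in SM (two-sided exact permutation test over the 10 pairs, p = 0.00195, the smallest that 10 pairs allow). The tissue labels were checked by correlating the log2 CPM (counts scaled to the library total) of each library, across the 11313 genes tested, with the mean of each tissue in the other cats. Each SM library came closest to SM, with Pearson's r between 0.848 and 0.954. The AT library of cat 5 had an r of 0.911 with AT and 0.714 with T. Besides cat 6, each AT library came closest to AT (r between 0.739 and 0.936), with r between 0.506 and 0.613 for SM. The next closest tissue of these libraries was CT, by a small margin in some, as in cat 12 (0.739 with AT and 0.712 with CT). Over all 10 AT libraries r with CT lay between 0.699 and 0.875. The AT library of cat 6 had an r of 0.777 with AT and 0.802 with SM, so this library stood nearer to muscle than to its own label.

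How much of the RNA of each tissue appeared in the other was read from 2 lists made without these 20 libraries. The SM list holds the 50 identifiers most strongly raised in SM, and the AT list the 50 most strongly raised in AT, between the 10 SM and 6 AT libraries of other cats, among identifiers with a mean of at least 100 CPM in that tissue. In the paired SM libraries the SM list took 37.7% of all counts in the lowest library, 46.5% at the median and 54.4% in the highest. In the AT libraries it took between 0.0168% and 0.192% in 9 cats, and 25.2% in cat 6. The AT library of cat 6 thus held the SM list at 46.3% of its share in the SM library of the same cat, while in the other 9 cats this figure lay between 0.0373% and 0.390%.

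Across the 50 identifiers of the SM list, the log2 ratio of AT to SM in cat 6 had a median of -1.11, with the middle 50% of identifiers between -1.35 and -0.98. In the other cats the median ratio lay between -12.41 and -7.42, and the lower and upper quartiles were spread much wider, for example from -13.41 to -10.28 in cat 29. At least 10 counts were found for 49 of the 50 SM identifiers in the AT library of cat 6. Only 3 of the 50 reached 10 counts in each of the other 9 AT libraries. The AT list, in contrast, took 3.04% of the counts of the AT library of cat 6, inside the range of the other AT libraries (1.90% to 4.72%). Transcripts of the AT list were thus present there beside those of the SM list, at a usual share of all counts. The main counts below are given with and without this cat.

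Muscle libraries held little of the AT list. It took between 0.0178% and 0.0897% of the counts of the 10 SM libraries, which was between 0.377% (cat 18) and 3.77% (cat 23) of its share in the AT library of the same cat. No AT library overlapped with any SM library on either list, cat 6 included.

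**Figure D1:**
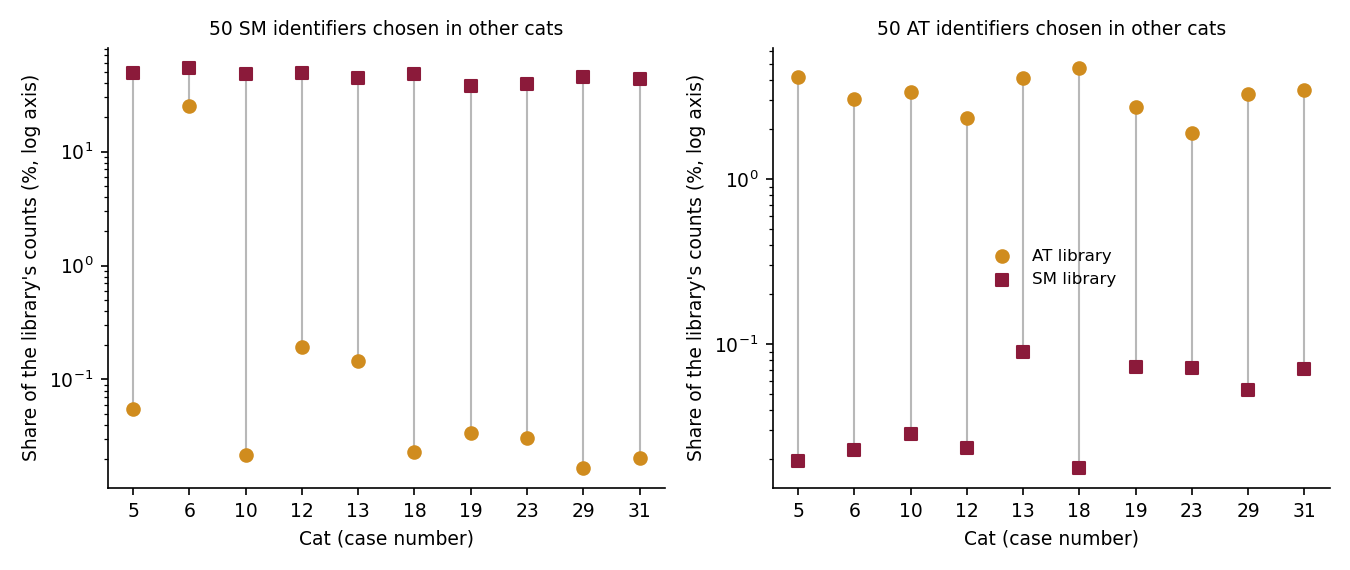
Share of each library's counts (percent, log axis) taken by 50 SM identifiers (left) and 50 AT identifiers (right) that were chosen in libraries of other cats, for the AT library (circles) and the SM library (squares) of each of the 10 cats, joined by a line. On the left the AT library of cat 6 stands at 25.2%, while the other AT libraries lie at or below 0.192%, and on the right all AT libraries lie between 1.90% and 4.72%.

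The tumor and connective tissue of the same cats, whose libraries had no part in making the lists, lay between both tissues on the AT list. It took 0.157% to 0.562% of the counts in the 10 T libraries and 0.396% to 0.647% in the 4 CT libraries, all above the highest SM and below the lowest AT library. On the SM list, T libraries ranged from 0.00984% to 0.665% with a median of 0.0417%, and CT libraries from 0.0327% to 1.36% with a median of 0.187%. The CT value of 1.36% was that of cat 6, and the other CT libraries did not pass 0.323%. The T and CT ranges overlapped with that of AT outside cat 6.

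AT and SM differed at 34.6% of the genes that could be tested. With edgeR's quasi-likelihood test and the cat as a block, 2178 genes were higher in AT (19.3% of the 11313 tested) and 1741 were lower (15.4%), where a call needed a Benjamini-Hochberg adjusted p-value below 0.05 together with a log2(FC) of more than 1 in size. Without a limit on the log2(FC), 5260 genes passed (46.5%), of which 2843 were higher and 2417 lower in AT. Without cat 6, 1906 genes were higher and 1830 lower, out of 11338 tested, and of these 1854 and 1690 had also been called with it. The balance between the directions rested on the scaling between libraries. Without TMM normalization, which sets totals so that most genes do not differ, 6514 genes were higher and 596 lower, which is 91.6% higher against 55.6% with TMM, and the median log2(FC) of all genes moved from 0.14 to 1.35.

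Large differences lay mostly on the side of muscle. Among the genes lower in AT, 324 of 1741 (18.6%) had a log2(FC) of more than 4 in size and 66 one of more than 8. Among the genes higher in AT, 96 of 2178 (4.41%) had a log2(FC) of more than 4 and 10 one of more than 8. Without cat 6 the shares of more than 4 in size were 19.4% downward and 4.83% upward. The median log2(FC) was 1.76 for genes higher and -1.89 for genes lower in AT, so the bulk of the calls were of similar size in both directions and the sides parted in their tails. Without cat 6 the genes of more than 8 in size numbered 94 downward and 8 upward.

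**Figure D2:**
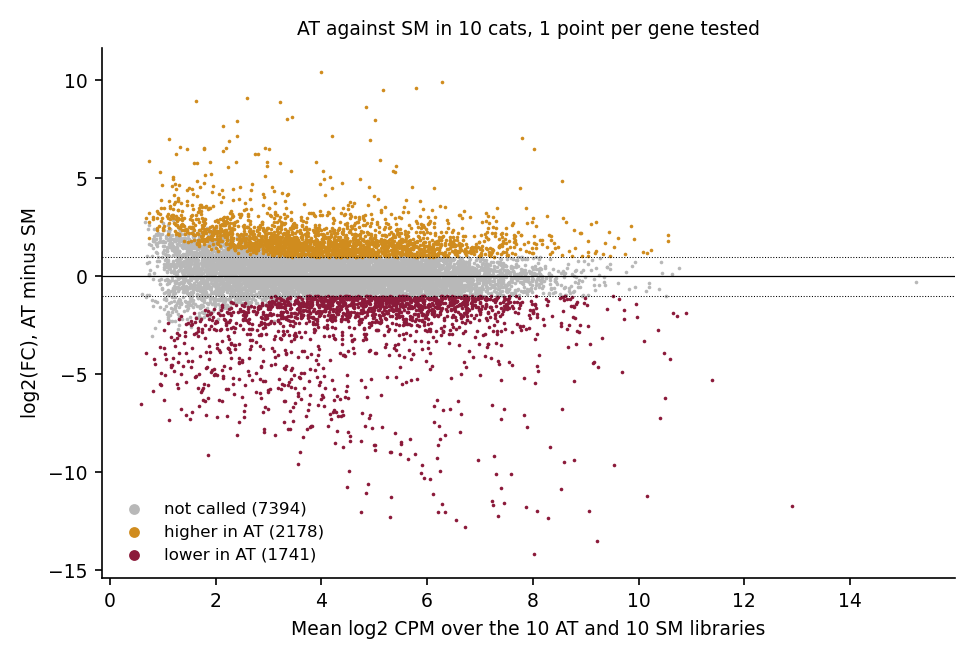
log2(FC) of AT minus SM (vertical axis) against the mean log2 CPM over the 20 libraries (horizontal axis), with 1 point for each of the 11313 genes tested, coloured where called. The 1741 genes lower in AT reach down to -14.16, while the 2178 genes higher in AT end at 10.43, and dotted lines mark the limits of 1 and -1.

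The share of calls in each direction depended on how strongly genes were expressed. When the genes were divided into 3 classes of 3771 by their mean level over all 20 libraries, 19.7% of the lowest class were higher and 10.1% lower in AT. In the middle class these shares were 21.2% and 15.1%, and in the highest class 16.9% and 21%. Without cat 6 the shares were 15.1% and 10.2% in the lowest, 19.4% and 16% in the middle, and 15.9% and 22.2% in the highest class. The 95% confidence interval of the log2(FC) was wider in weakly expressed genes, with a median half-width of 1.38 in the lowest, 0.69 in the middle and 0.43 in the highest class.

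Most of the abundant transcripts of muscle fell in AT. Of the 100 identifiers with the highest mean CPM in the 10 SM libraries of other cats, 88 were called lower and 1 higher in AT within the pairs (89 and 1 without cat 6), where 15.4% of all genes tested were lower. Of the 100 most abundant in the 6 AT libraries of other cats, 63 were higher and 6 lower in AT (60 and 7 without cat 6). Of all genes tested, 19.3% were higher in AT (16.8% without cat 6). The sets of 100, picked in libraries outside the pairs, shared 17 identifiers. Within the lists made in other cats, all 50 SM identifiers were called lower in AT, with a median log2(FC) of -10.47 (range -14.16 to -6.68), and 48 of the 50 AT identifiers were called higher, with a median of 4.81 (range 1.33 to 10.43). The medians were -11.31 and 4.66 without cat 6, with the same numbers of calls. The median of all genes tested was 0.14.

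The direction of the single pairs is given as a description, since genes were called for moving alike over these same pairs. Among the genes higher in AT, 1216 of 2178 (55.8%) were higher in all 10 cats, as were 12.5% of all genes tested. Among the genes lower in AT, 1253 of 1741 (72.0%) were lower in all 10 cats, as were 13.1% of all genes tested. Without cat 6, 59% of the genes higher and 76.6% of the genes lower moved alike in the 9 pairs. Moving alike is easier to reach in 9 pairs than in 10. The share over all genes tested is not given for 9 pairs, so these shares show no gain. Every AT library lay above every SM library for 390 genes (3.45% of those tested) and below every SM library for 658 (5.82%). Over the 9 pairs without cat 6 these numbers were 365 (3.22%) and 926 (8.17%) of 11338 genes tested. The number thus rose on the side of muscle only. The set of genes tested also changed, so this does not show the removal of cat 6 alone.

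Single genes are shown by 4 identifiers, chosen among the called genes that moved the same way in all 10 pairs and had at least 10 counts in every library of the higher tissue (1127 genes higher and 1231 lower in AT). In each direction they are the gene with the highest mean CPM in the higher tissue and the one with the largest log2(FC). CPM are given relative to the TMM-scaled total of a library, which for SM is smaller than the total of its counts.

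ENSFCAG00000011685 was the most abundant of the eligible genes higher in AT. Its level in AT was 820 CPM in the lowest, 2261 CPM at the median and 8142 CPM in the highest library, and in SM it was 5.75, 18.4 and 154 CPM. The lowest AT library thus stood above the highest SM library, that of cat 13, while the other SM libraries did not pass 27.04 CPM. The log2(FC) was 7.07 (standard error 0.45, edgeR's adjusted p = 6.6e-08, n = 10 pairs), and the log2 ratios of the single pairs lay between 5.23 and 8.74. In cats outside the 10 pairs, fitted without a block, it was 5.01 (standard error 0.87, edgeR's adjusted p = 2.0e-04). The pairs fitted without a block gave 6.73.

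ENSFCAG00000035912 had the largest log2(FC) upward. It had 187 to 6134 counts in the AT libraries, which is 102.2 CPM in the lowest, 423 CPM at the median and 1532 CPM in the highest. In SM it was at 0 in 6 libraries, had 3 or 4 counts in 3 and 81 counts in cat 13 (21.7 CPM). Both tissues were far apart in each pair, with the narrowest gap in cat 13. The fitted log2(FC) was 10.43 (standard error 0.84, edgeR's adjusted p = 2.0e-07), a value that rests on few SM counts since most SM libraries hold none. It was 7.91 without the cat as a block and 11.61 without cat 13. Other cats, fitted without a block, gave 7.37 (standard error 1.13, edgeR's adjusted p = 5.9e-05).

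ENSFCAG00000046559 was the most abundant identifier of all 10 SM libraries, with 21.2% to 29.9% of their counts. In AT it had at most 833 counts in 9 cats (24.4 to 455 CPM), and 655734 counts in cat 6, where it took 13.7% of the library. In SM its level was 260629 CPM in the lowest, 337612 CPM at the median and 642490 CPM in the highest library, and no AT library reached the lowest of them. The log2(FC) was -11.71 (standard error 1.68, edgeR's adjusted p = 3.5e-05) with cat 6 and -12.17 without it. Fitted without the cat as a block it was -4.80 (edgeR's adjusted p = 0.037), and no result of the 4 identifiers changed its call or direction there. Cats outside the pairs, fitted without a block, gave -9.54 (standard error 1.71, edgeR's adjusted p = 2.8e-04).

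ENSFCAG00000002672 had the largest log2(FC) downward. It had 52593 to 271394 counts in the SM libraries (12910 to 41101 CPM). In AT it was at 0 in 3 libraries, had 2 to 11 counts in 6 and 33165 counts (6635 CPM) in cat 6. Cat 6 thus stood apart from the other pairs, with a log2 ratio of -2.30 against -12.52 in the next cat. The fitted log2(FC) was -14.16 (standard error 1.55, edgeR's adjusted p = 2.9e-06), -14.69 without cat 6 and -5.29 without the cat as a block. Cats outside the pairs, fitted without a block, gave -9.81 (standard error 1.83, edgeR's adjusted p = 4.0e-04).

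**Figure D3:**
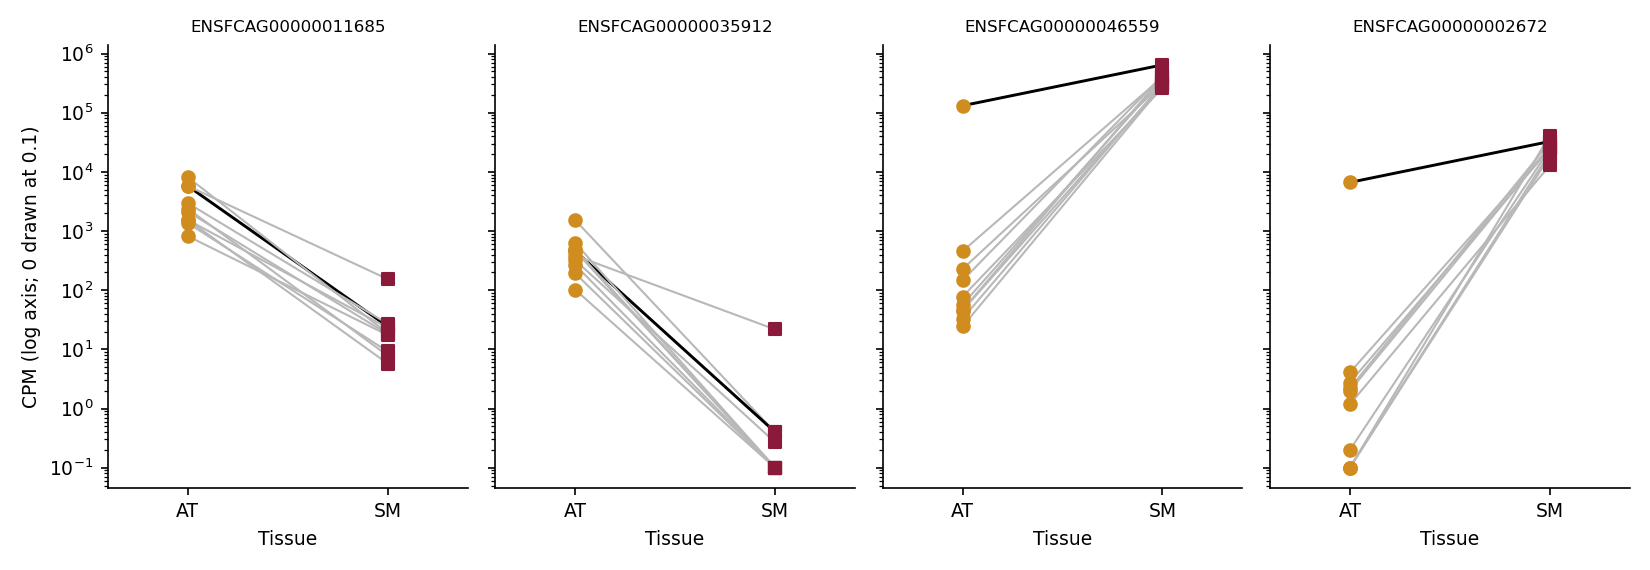
CPM (log axis, 0 drawn at 0.1) of the 4 identifiers in the AT (circles) and SM (squares) library of each cat, joined by a line that is black for cat 6. Both identifiers on the left stand higher in AT in all 10 cats, and both on the right are lower in AT in all 10 cats, where the AT library of cat 6 reaches 131182 and 6635 CPM.

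In a joint scaling of all 77 libraries, T libraries of the same cats held ENSFCAG00000011685 at 77.1 to 272 CPM and the 4 CT libraries at 150 to 263 CPM, below the lowest AT library. ENSFCAG00000035912 was at 0 at the median of T, with a highest value of 6.77 CPM, and at 4.27 to 17.7 CPM in CT. ENSFCAG00000046559 ranged from 4.66 to 2068 CPM in T and from 147 to 6927 CPM in CT. ENSFCAG00000002672 did not pass 3.12 CPM in T and reached 400 CPM in CT. For both muscle identifiers, the highest CT libraries thus stood above AT outside cat 6, and all T and CT libraries stood far under SM. On the SM list the highest CT library was that of cat 6.

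One further identifier was picked after its values were seen. ENSFCAG00000047751 was the most abundant identifier of 9 of the 10 AT libraries, with 2.71% to 10.8% of their counts over all 10, and took 1.44% to 6.68% of the counts in SM. Its TMM-scaled level was lower in AT in 9 of 10 pairs, with a log2(FC) of -0.31 that did not pass the test (standard error 0.50, 95% confidence interval -1.36 to 0.75, edgeR's adjusted p = 0.645). The interval did not bound a 2-fold difference, and the sign of the log2(FC) turned without TMM (0.90).

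The tissues also differed in how their counts were spread over genes. The 50 most abundant identifiers of a library took 12.4% of the counts in the lowest AT library, 18.2% at the median and 36.8% in the highest, that of cat 6, and 49.1%, 58.2% and 65.6% in SM. The mean difference of AT minus SM was -37.2 ± 6.07 percentage points (SD, n = 10), with AT lower in 10 of 10 pairs (two-sided exact permutation test, p = 0.00195, adjusted p = 0.00195 over 3 measures). In SM between 11 and 57 identifiers held 50% of the counts. In AT the same part took 227 identifiers in cat 6 and between 612 and 1468 in the other 9 cats.

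More genes were seen in AT than in SM at the same depth. Thinned to 1047617 counts, the smallest total, AT libraries showed 11539 genes in the lowest, 12378 at the median and 16859 in the highest library, and SM libraries 10065, 11563 and 15993. The difference was 1145 ± 1180 genes (SD, n = 10), with AT higher in 10 of 10 pairs (two-sided exact permutation test, p = 0.00195, adjusted p = 0.00195). It ranged from 51 genes (cat 31) to 3986 genes (cat 5). At the deposited depth the numbers of genes with a count were 13716 ± 1947 in AT and 13877 ± 2040 in SM (SD, n = 10 each). No difference was detected within pairs, with AT minus SM at -160.9 ± 1077 genes (SD, n = 10, exact permutation p = 0.662). The AT libraries of cats 5, 12 and 13 showed 15348 to 16859 genes at equal depth and the other 7 at most 12906. In SM, cats 12 and 13 stood highest, while cat 5 (11362 genes) did not stand apart.

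**Figure D4:**
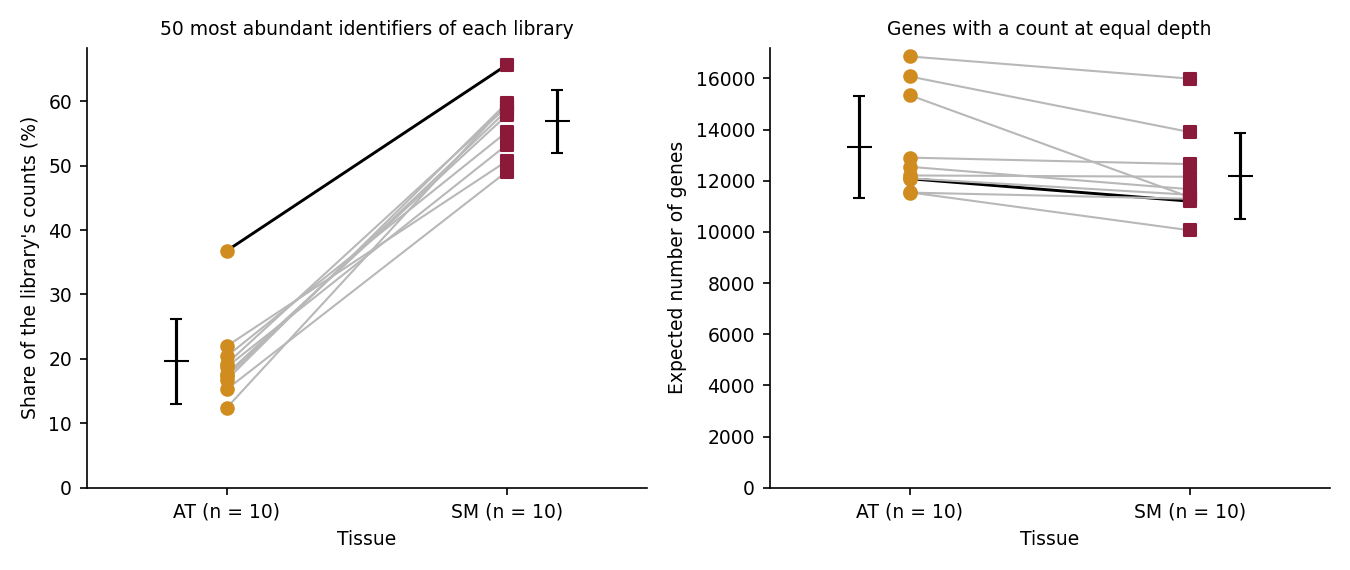
Left, share of counts (percent) in the 50 most abundant identifiers of each library; right, expected number of genes with a count at 1047617 counts. Circles are AT, squares SM, lines join the libraries of a cat (black for cat 6) and bars give mean ± SD over 10 cats; AT lies lower on the left and higher on the right in all 10 pairs.

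Tissue accounted for 43.0% of the variance of log2 CPM over the 20 libraries and the cat for 34.3%, leaving 22.7% to neither. These are shares of sums of squares, not corrected for degrees of freedom, which are equally many for the cat and the rest. Cats without any effect would be expected to take about as much as the rest, so 34.3% is to be read against 22.7%. Without cat 6 the shares of tissue and cat were 45.2% and 32.8%, and without cats 12 and 13 they were 47.4% and 30.7%. The first principal component held 47.3% of the variance and ordered all SM libraries (63.0 to 135) above all AT libraries (-117 to -3.17), with the AT library of cat 6 the nearest to SM and the next at -68.6. The second component (9.19%) set both libraries of cats 12 and 13 lowest, at -93.7 and -78.4 in AT and -38.4 and -52.0 in SM.

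The size of the difference varied between cats. In single pairs, between 759 (cat 31) and 2489 genes (cat 18) were over 4-fold higher in AT, and between 888 (cat 6) and 1661 genes (cat 23) over 4-fold lower, out of 11313. Cat 18 was the widest pair upward, with 830 genes over 16-fold higher in AT, where the other cats had 41 to 308. Cat 6 was the narrowest downward, with 101 genes over 16-fold lower in AT against 276 to 617 in the other cats.

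Calls made in 9 cats were then looked up in the cat left out. Of the genes called higher in AT, 79.5% (cat 23) to 97.1% (cat 5) were also higher in the cat that had no part in the call, with a median over cats of 91.8%. Of the genes called lower, 89.0% (cat 23) to 98.5% (cat 29) were also lower, with a median of 95.2%. Of all genes tested, 50.1% to 55.1% were higher in AT in a single cat. The median log2 ratio of the genes called higher lay between 1.18 (cat 23) and 2.51 (cat 18), and that of the genes called lower between -2.28 (cat 10) and -1.39 (cat 6). Cat 6 thus followed the direction of the calls as often as other cats (94.1% and 96.7%) but had the smallest median downward.

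**Figure D5:**
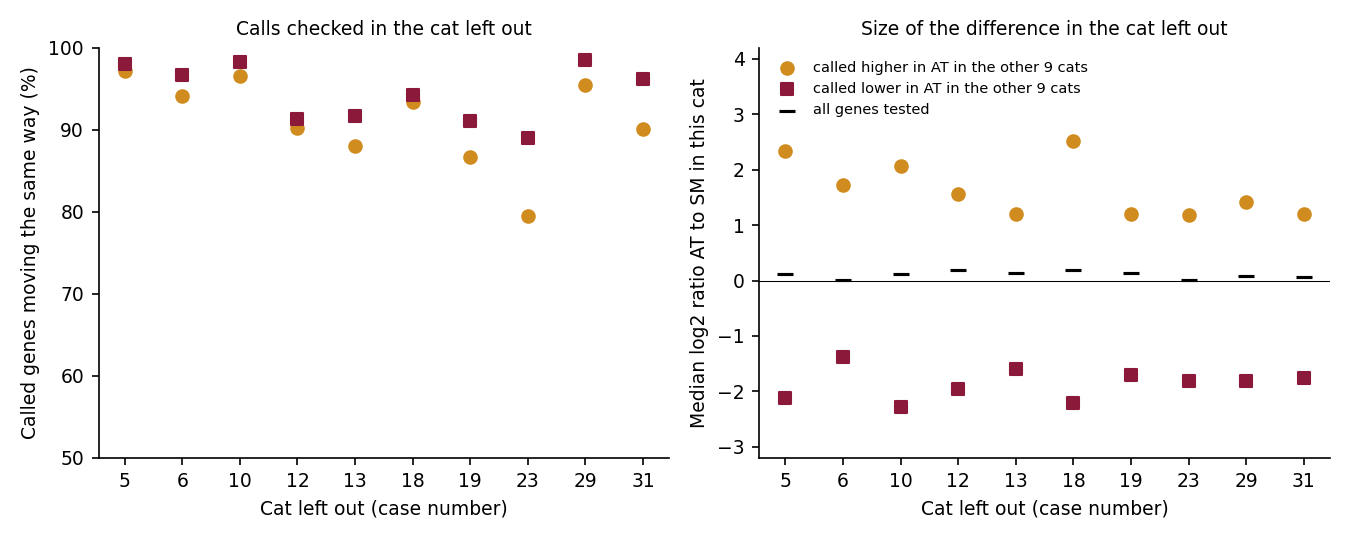
Left, percent of the genes called in 9 cats that moved the same way in the cat left out (axis from 50 to 100); right, the median log2 ratio of AT to SM of the same genes in that cat. Circles are genes called higher and squares genes called lower in AT, and dashes on the right are all genes tested, which lie between 0.0033 and 0.20.

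The same contrast was made in cats outside the 10 pairs, with 6 AT and 10 SM libraries from different cats and no library in common with the pairs. The fit there had tissue only in the model, while that of the pairs also had the cat, so sizes are not fully alike. Among the 11293 genes tested in both, 1694 were higher in AT (15%) and 1450 lower (12.8%) there. Of the 2175 genes called higher in the pairs, 1309 (60.2%) were called again, which is 77.3% of the other list, and of the 1740 called lower 1306 (75.1%, and 90.1% of the other list). No gene was called in opposite directions. Of the genes called in the pairs, 2155 of 2175 and 1731 of 1740 had the same sign in the other cats. Their median log2(FC) was 1.47 there against 1.75 in the pairs for genes higher, and -1.67 against -1.89 for genes lower. Without cats 11 to 17 in the second set, 920 genes higher and 1306 lower were called in both. Of the genes called higher in the pairs, 42.4% were then called again, against 60.2% before. The number of lower genes called in both did not change. This took out the AT libraries of cats 15, 16 and 17 but only the SM library of cat 11. At equal depth these showed 14069 to 17605 genes, and the other libraries of the second set, where measured, at most 13049. Whether this imbalance bears on the calls was not tested. With cat 6 left out of the pairs, an alternative added after the data were seen, 1208 higher and 1331 lower were called in both.

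A difference could be bounded for part of the genes. The 95% confidence interval of the log2(FC) lay within 1 of 0 for 2577 genes (22.8% of those tested) and within 0.5 of 0 for 376 (3.32%). For 3787 genes (33.5%), the adjusted p-value was not passed and the interval reached further than 1 from 0. A 2-fold difference was neither shown nor excluded for these genes. Without cat 6 the interval lay within 1 of 0 for 2330 genes (20.6%). The spread between cats was compared on 1814 genes with a mean of at least 50 counts in both tissues at equal depth. The median SD of log2 CPM was 0.47 in AT and 0.41 in SM, with the larger SD in AT for 62.8% of the genes. Without cat 6 the values were 0.45 and 0.41 on 1796 genes, with 57.6% larger in AT. Without cats 12 and 13 they were 0.42 and 0.41, with 52.3% larger in AT, so the wider spread of AT was hardly seen without these cats.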

How the data were processed

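RNA of LCM-isolated tissue was sequenced by the authors and deposited as whole-number counts per Ensembl gene identifier, 1 file per library, without normalization. The paper names Trimmomatic, Kallisto and the genome build Felis_catus_9.0, while the submitters' processing notes name STAR and featureCounts, so the counting tool is uncertain. Total counts of the 20 libraries ranged from 1047617 to 18377280. No 2 libraries were identical. The reference table (39307 genes) matched 0 identifiers, so gene symbols, gene lists, length and GC content were not used here.

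These counts were taken into edgeR 4.0.16 (R 4.3.3, with limma 3.58.1 loaded), with filterByExpr by tissue, TMM, quasi-likelihood test with tissue and cat in the model, and Benjamini-Hochberg adjustment over all genes tested. The fit of the cats outside the pairs, which also gave the SM and AT lists, had tissue only in the model. A call needed adjusted p below 0.05 together with a log2(FC) of more than 1 in size. log2 CPM used a prior count of 2. Ratios of the SM and AT lists used a pseudocount of 0.5. Library measures were tested by exact sign flips over the 10 pairs. Alternatives were DESeq2 1.42.0, the likelihood ratio test, other filters, scalings, equal depth, no block, and cats left out. Those that leave out cat 6 in the second comparison, or cats 6, 12 and 13, were added after the data were seen, as were the most abundant identifiers of other cats and the values without cat 6 of level classes, intervals and spread. The comparison, lists and rules were chosen with earlier results of these data known. Simulated counts, in which 200 genes were changed, served to check the scripts.

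A case number in the title marks one cat, and this pairs AT with SM. Across genes, what remained of each library after taking off its tissue's mean had a median Pearson's r of 0.219 within cats and -0.0288 between cats, and 9 of 10 AT libraries correlated best with the SM library of their own cat. The 4 genes named were the most abundant and the most changed in each direction, as stated beside them. Figures were made in Python 3.11.15 with matplotlib 3.10.9.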

Additional observations from a re-analysis of the deposited data

Results flagged for a closer look

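Of 18 groups of 10 values examined (library measures in AT and in SM, the pair ratios of the named genes and the calls checked in the cat left out), 6 held a value far from the others by Dixon's test, where 0.9 are given by chance. In cat 6, the SM list took 25.2% of the counts of the AT library, with the next cat at 0.192%. The 50 most abundant identifiers took 36.8% of the counts of the same library, with the next at 21.98%. The log2 ratio of AT to SM in cat 6 was -2.29 for ENSFCAG00000046559 (next cat -9.77) and -2.30 for ENSFCAG00000002672 (next cat -12.52). These 4 values rest on the same AT library. In the SM library of cat 6, 29.9% of the counts fell on the leading identifier, with the next at 25.3%. In cat 13, the log2 ratio of ENSFCAG00000035912 was 4.13, with the next cat at 8.15, and this cat had 81 counts in SM where the other cats had 0 to 4. The cause of these values was not tested.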

How the results depend on the processing

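Of 208 values under alternative settings, 203 kept their direction and side of the threshold, stayed within 1.5 times of a count, or moved by less than 1 SD. Without TMM, 6514 genes were higher and 596 lower in AT and 8229 passed the adjusted p-value, against 2178, 1741 and 5260. This scaling takes the totals as they are, and 21.2% to 29.9% of those of SM are counts of a single identifier. Under the other settings 1760 to 2549 genes were higher and 1368 to 2039 lower. Lower genes outnumbered higher ones with the 50 most abundant SM identifiers out of the totals (1855 higher, 1953 lower) and, by 1 gene, without cats 6, 12 and 13 (1760 and 1761). Without the cat as a block, 2007 were higher and 1589 lower. With each cat left out in turn, 1895 to 2256 were higher and 1640 to 1830 lower. The number of detected genes, AT minus SM, turned to -301.1 (exact permutation p = 0.168) with at least 10 counts at the deposited depth, where SM libraries have the larger totals. The share of the AT list in SM libraries was 0.221% with 100 identifiers against 0.0470% with 50. The mean share of the SM list in AT libraries was 2.57% with cat 6 and 0.0601% without it. With a list made without cats 11 to 17 it was 0.762%. That list also took less of the paired SM libraries, with a mean of 13.1% against 45.9%, so 0.762% and 2.57% are not on the same scale. The SD of the main share, 7.95, is set by cat 6. The changes of this share under 1 SD thus say nothing of its stability, although they are among the 203.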
